A study of Mus musculus with 36 samples.

Results

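Genomic imprinting leaves one parental copy of a gene active and the other silent. The 42 genes described here are imprinted mouse genes other than H19 and Igf2. They were taken from a list of 45 names, of which Rian, Mirg and Kcnq1ot1 had no line in the deposited table of 25965 genes. By common knowledge of the field 14 of the 42 are classed as expressed from the maternal copy and 23 from the paternal copy. The other 5 (Grb10, Ddc, Gnas, H13 and Inpp5f) are classed as expressed from either copy depending on the isoform or tissue. A class may hold in some tissues only, and it was not checked in these cells. RNA was measured in Xmas mouse embryonic stem cells (mESCs), female C57/Bl6 lines in which the Hprt gene is tagged with GFP on one X and with mCherry on the other. The cells were expanded in 2i and LIF, which hold the naive state, and were then weaned into serum medium (DME HiHi) without LIF. RNA was collected on each day from day 0 to day 8, in 4 libraries a day and 36 libraries in all. On each day the 4 libraries are line X14 labelled double, X14 labelled single, X18 labelled double and X18 labelled single, named here in that order, and the labels do not explain the words double and single. Nothing in the labels says that the libraries of a line came from separate derivations, so p-values measure the spread between the libraries of these 4 cultures. Since both X chromosomes and all autosomes are of one strain, the reads do not show which parental copy they came from, and only total RNA of each gene was measured.

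Each library held 612740 to 2445826 reads in genes, and levels are given as RPM (reads per 1000000 reads of the library). A floor of 3 reads stands at 1.04 to 3.90 RPM, so counting error is wide for genes at a few RPM, and floors cover counting error only. A gene was tested if it had at least 1 RPM in at least 4 of the 36 libraries, which left 14612 genes and 41 of the 42 imprinted genes. Rasgrf1, with 2 reads in 1 library and 0 in the other 35, was not tested. On day 0 both X14 libraries went against their labels. Over all tested genes the deviation of the X14 double library of day 0 from the day's mean had a median correlation of -0.05 with X14 double on days 1 to 8 and of 0.27 with X14 single, and the X14 single library gave -0.07 with its own label and 0.11 with the other. Comparisons between days do not use the labels, but each was also run without these libraries, which gave 19 imprinted genes called on day 4 in place of 17 and 23 on day 8 in place of 21. The shares of all genes called in those runs are not given here.

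Imprints are marks of DNA methylation set at control regions in the germ line. They survive the erasure of methylation after fertilisation because the zinc-finger protein Zfp57, with its partner Trim28, holds methylation at control regions that carry the hexamer TGCCGC. Many imprinted genes lie in clusters that share 1 control region, so neighbours can be expressed from opposite parental copies. As a group they are known for roles in growth, placenta and brain, and several are silent or low in naive cells.

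Promoters of 5 of the genes that had changed by day 4 are shown because they hold this hexamer. They are RefSeq windows of 300 bases (250 before and 50 after the start, build GRCm38.p6, which has the coordinates of mm10), written 5′ to 3′ on the strand of the gene. Capitals mark TGCCGC or its reverse complement GCGGCA. The windows are Meg3 at chr12:109540746-109541045 (plus strand), Mest at chr6:30737800-30738099 (plus), Snrpn at chr7:60005150-60005449 (minus), Plagl1 at chr10:13090582-13090881 (plus) and Nnat at chr2:157559828-157560127 (plus).
Meg3: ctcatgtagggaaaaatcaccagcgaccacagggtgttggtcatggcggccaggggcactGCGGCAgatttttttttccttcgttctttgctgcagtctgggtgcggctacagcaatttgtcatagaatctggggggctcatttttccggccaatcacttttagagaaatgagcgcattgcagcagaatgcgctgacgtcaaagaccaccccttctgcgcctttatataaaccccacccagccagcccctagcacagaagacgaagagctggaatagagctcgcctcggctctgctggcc
Mest: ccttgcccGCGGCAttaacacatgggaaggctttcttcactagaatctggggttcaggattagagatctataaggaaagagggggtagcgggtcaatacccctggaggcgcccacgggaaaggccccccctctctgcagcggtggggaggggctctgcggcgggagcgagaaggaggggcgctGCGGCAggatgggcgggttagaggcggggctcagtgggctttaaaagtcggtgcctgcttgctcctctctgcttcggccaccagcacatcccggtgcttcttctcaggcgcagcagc
Snrpn: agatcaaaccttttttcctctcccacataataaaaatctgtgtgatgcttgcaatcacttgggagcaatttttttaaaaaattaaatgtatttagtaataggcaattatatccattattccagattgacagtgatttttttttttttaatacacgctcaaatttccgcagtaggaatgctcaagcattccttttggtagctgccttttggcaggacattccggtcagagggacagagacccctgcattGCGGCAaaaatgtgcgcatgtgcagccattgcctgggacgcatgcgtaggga
Plagl1: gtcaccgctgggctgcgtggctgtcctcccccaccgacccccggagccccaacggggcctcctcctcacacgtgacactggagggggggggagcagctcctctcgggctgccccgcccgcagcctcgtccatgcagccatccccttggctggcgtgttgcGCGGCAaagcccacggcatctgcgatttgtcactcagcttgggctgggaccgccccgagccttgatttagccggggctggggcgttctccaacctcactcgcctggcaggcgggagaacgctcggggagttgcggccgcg
Nnat: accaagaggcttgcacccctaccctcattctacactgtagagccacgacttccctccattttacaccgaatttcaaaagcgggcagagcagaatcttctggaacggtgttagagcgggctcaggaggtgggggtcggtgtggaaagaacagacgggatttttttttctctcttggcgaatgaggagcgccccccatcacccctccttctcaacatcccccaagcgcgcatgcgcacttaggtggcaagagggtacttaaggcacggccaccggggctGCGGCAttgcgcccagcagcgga

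Of the 36 imprinted genes with a RefSeq window, 11 (30.6%) had the hexamer on either strand in at least 1 window. It stood in at least 1 window of 13.1% of all 27025 genes and in 11.6% of all 32851 windows. Besides the 5 shown these were Zim1, Osbpl5, Grb10, Nap1l5, Commd1 and Mcts2. Of the 22 with a window whose level changed over the 9 days 9 had it, and of the 14 that did not pass that test 2 had it. This is a description of letters in these windows, with base composition not matched, and it does not show binding.

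Most of the imprinted genes that changed went up, in both parental classes. A gene was called changed at an adjusted p under 0.05 and a log2 fold change of at least 1 (limma-trend on the deposited log2 values, Benjamini-Hochberg over all genes tested, two-sided). No imprinted gene was called on day 1 by limma-trend or by voom on recovered reads, and 0.0684% of all tested genes were called by limma-trend. Unadjusted p (limma-trend) was under 0.05 for 4 of the 41 and for 775 of the 14612 genes. By day 2 5 of 41 had risen (Peg10, Mest, Dlk1, Peg3 and Meg3) against 2.96% of all genes called and 2.09% called higher, and with the culture as replicate block 10 were called, the added ones being Sgce, Ppp1r9a, Cdkn1c, Ascl2 and Grb10. Of the 5, only Peg10 and Mest were still called when any 1 of X14 single, X18 double or X18 single was left out, which left 2 calls each time. Without X14 double 10 were called, and without the X14 libraries of day 0 13 were. The shares of all genes called in these other fits are not given here. On day 3 13 had risen and none had fallen (8.89% of all genes called, 5.72% higher). On day 4 15 were higher and 2 lower than on day 0, against 18.6% of all genes called, 12.2% higher and 6.4% lower. On days 5, 6 and 7 21, 20 and 21 were called, against 26.8%, 33.4% and 35.4% of all genes.

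On day 8 19 of the 41 were higher and 2 lower, against 35% of all genes called, 23.9% higher and 11.1% lower. Rescaling the libraries to their 75th percentile moved the median of all genes from 0.23 to 0.02 on the log2 scale and gave 17 imprinted genes higher and 2 lower, and quantile normalisation gave 19 higher and 5 lower. Of the 14 maternally expressed genes 7 were higher and none lower, with a median log2 fold change of 1.35. Of these 7, 5 lie in the Kcnq1ot1 domain and the others are Meg3 and Zim1. The calls of Zim1 and of Slc22a18, in that domain, rested on few reads. Of the 22 tested paternally expressed genes 9 were higher and 1 lower, with a median of 0.85, and of the 5 isoform-dependent genes 3 were higher and 1 lower, with a median of 2.35. The median over the 41 was 0.94, or 1.10 with genes that had no read on day 0 set at their lower bound, and that of all genes was 0.23. Every day 8 library lay above every day 0 library for 16 of the 41 and below for 1, which is 41.5% without overlap, against 28.1% of all genes. Over the 9 days 28 of the 41 changed by the F test (adjusted p under 0.05), a share of 68.3% beside 65.2% of all genes.

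**Figure D1:**
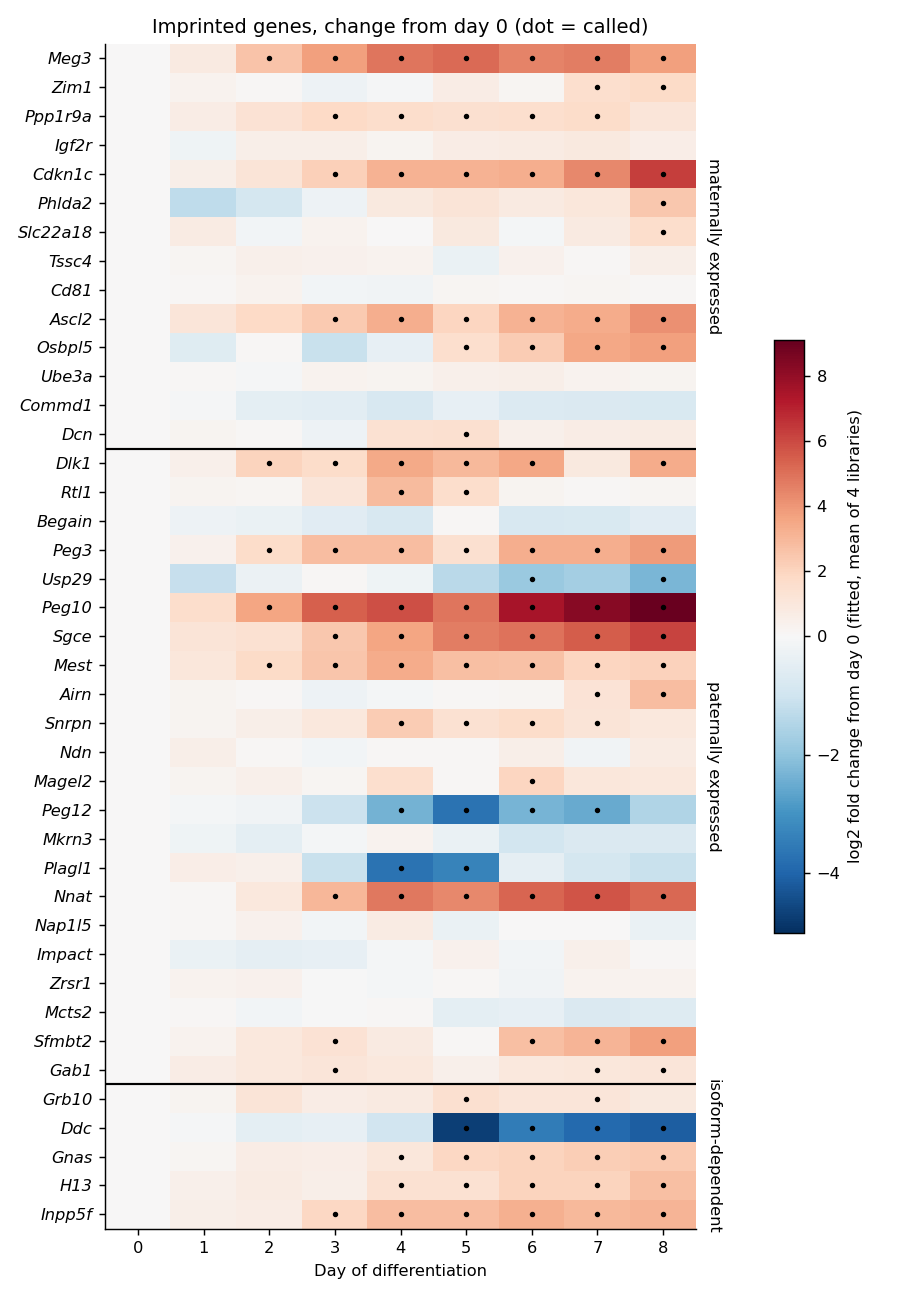
Fitted log2 fold change from day 0 (colour) for the 41 tested imprinted genes on days 0 to 8, in rows by parental class, with a dot where a gene was called and a colour scale that is steeper below 0 than above. Peg10 has the deepest red, reaching 9.02 on day 8, and most rows with dots are red in all 3 classes.

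Some of the genes rose to the end and some had a high or low point on the way. Others, Igf2r and Ndn among them, were called on no day. Of the 31 with a mean of at least 10 RPM on some day, 18 had their highest mean on days 6 to 8, 6 on days 4 and 5, 5 on days 2 and 3 and 2 on day 0 or 1. Igf2r and Ndn are among the 18, and the shares of all genes by highest day are not given here. From day 4 to day 8 11 genes rose and 6 fell, against 24.7% of all genes called, 15.7% higher and 9.01% lower.

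Peg10 had the greatest change of the 41. It is a paternally expressed gene derived from a retrotransposon and needed for the placenta. Its level was 17.1, 8.33, 6.17 and 18.8 RPM in the 4 libraries of day 0 and 1036, 459, 979 and 400.2 RPM on day 4. On day 8 it reached 15632, 6442, 5968 and 2015 RPM. No day overlapped another among these 3, and on day 8 the X14 double library was the highest and the X18 single library the lowest. The log2 fold change was 5.86 ± 0.49 (SE) on day 4 and 9.02 ± 0.49 on day 8, with adjusted p of 5.26e-11 and 2.9e-16 by limma-trend. Per length, Peg10 stood at a mean of 1127 RPKM (RPM per kilobase of exon) on day 8, rank 13 of the 14612 genes tested.

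Sgce encodes epsilon-sarcoglycan, a membrane protein, and is paternally expressed too. Its line in the table starts 101 bases from that of Peg10 and is read in the other direction, both on chromosome 6 (mm10, Sgce 4674350 to 4747204, Peg10 4747306 to 4760517). Sgce had 2.78, 0.463, 0 and 0 RPM on day 0, 16.8, 7.76, 12.4 and 11.2 RPM on day 4 and 84.1, 65.1, 87.0 and 53.5 RPM on day 8. It rose from a far lower level than Peg10, by 6.18 ± 0.46 on the log2 scale on day 8 (adjusted p = 7.8e-13, limma-trend). On the log2 RPKM scale Peg10 stood above Sgce by 2.42 ± 1.0 (SD, n = 4) at the start. The gap was 4.71 ± 0.48 on day 4 but 2.65 ± 0.98 a day later, and it was 5.26 ± 0.97 at the end. Ppp1r9a (neurabin, maternally expressed, 142 kb beyond Peg10) lay between 3.08 and 43.8 RPM in all libraries. It was called higher on each of days 3 to 7, with log2 fold changes of 1.49 to 1.78 and adjusted p of 0.00321 to 0.012. The call on day 4 (1.58 ± 0.46, adjusted p = 0.0117) was not made without X14 single (1.36, adjusted p = 0.0934) or X18 double (1.21, adjusted p = 0.143). On day 8 it gave 1.10 with adjusted p = 0.0515, with 0.0291 under the replicate block and 0.00808 without the X14 libraries of day 0 (1.69).

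Peg10 did not climb evenly. From day 4 to day 5 it went from 1036 to 218 RPM in X14 double, from 459 to 249 in X14 single, from 979 to 645 in X18 double and from 400.2 to 327 in X18 single, before rising again in all 4 on day 6. Peg3 had the same dip, from 803 to 159, 514 to 166, 696 to 449 and 425 to 248 RPM. Sgce went up in all 4 cultures over the same step. In all, 8 of 31 imprinted genes with at least 10 RPM on some day were lower in all 4 cultures on day 5 than on day 4 (Peg3, Peg10, Mest, Tssc4, Ascl2, Ddc, Snrpn and Gab1), which is 25.8% beside 25.5% of 10887 genes of that level. This step was picked after its values were seen and was not tested.

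Peg3, a paternally expressed zinc-finger gene with roles in growth and maternal behaviour, had its highest mean on day 8 too, although X18 double was highest on day 6 (1017 RPM) and X18 single on day 3 (615 RPM). It had 228, 79.6, 36 and 82.8 RPM on day 0 and 2589, 1520.3, 1004 and 576 RPM on day 8. The groups did not overlap, and both X14 libraries were above both X18 libraries on day 8. The log2 fold change on day 8 was 3.84 ± 0.46 (adjusted p = 2.64e-08, limma-trend). From day 4 to day 8 it gave 1.05 ± 0.46 with adjusted p = 0.0752, and 0.0418 with the replicate block. Its neighbours had few reads. Usp29, a paternally expressed ubiquitin protease whose line here covers 1 exon stretch 231 kb from Peg3, went from 5.09, 9.26, 3.08 and 5.12 RPM on day 0 to 3.63, 0, 0 and 0 RPM on day 8. It was called lower (-2.28 ± 0.76, adjusted p = 0.0142), but not without X14 single (adjusted p = 0.18), X18 double (adjusted p = 0.0554) or the X14 libraries of day 0 (-1.89, adjusted p = 0.0977). Zim1, a maternally expressed zinc-finger gene 7.44 kb from Peg3, had no read on day 0 and 17, 4, 1 and 0 reads on day 8, at least 7.94-fold higher over the group. Its call on day 8 was lost without X14 double (adjusted p = 0.162), X14 single (adjusted p = 0.0572) or the X14 libraries of day 0 (adjusted p = 0.101).

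**Figure D2:**
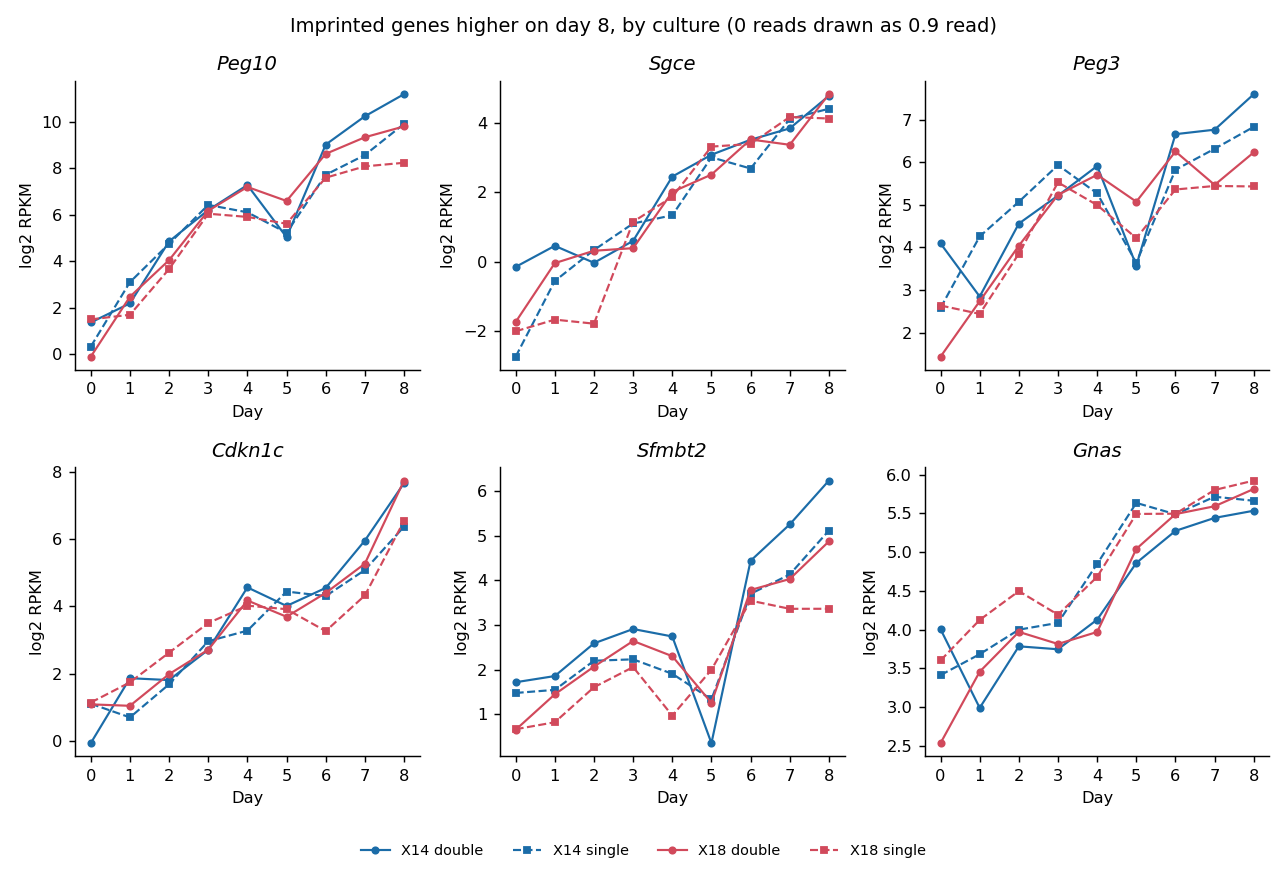
Level of Peg10, Sgce, Peg3, Cdkn1c, Sfmbt2 and Gnas by day in each of the 4 cultures, as deposited log2 RPKM with 0 reads drawn as 0.9 read. All 6 are above their day 0 levels in every culture on day 8, and Peg10 and Peg3 dip on day 5 while Sgce does not.

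In the Dlk1-Meg3 cluster on chromosome 12, Meg3 and Rtl1 had their highest mean in the middle of the course and Dlk1 on day 8. Meg3, a maternally expressed long non-coding RNA, is often silenced in stem cell lines. It had 22.7, 0.463, 2.06 and 35.9 RPM on day 0, 134, 287, 99.1 and 162 RPM on day 4 and 56.1, 113, 55.7 and 67.8 RPM on day 8. Both later days lay above all 4 libraries of day 0, and on day 0 the X14 single library had only 1 read. The log2 fold change was 4.90 ± 0.77 on day 4 and 3.73 ± 0.77 on day 8 (adjusted p = 1.05e-05 and 0.000179, limma-trend). The mean was highest on day 5 (193 ± 25.2 RPM, SD, n = 4). Both single cultures were above both double cultures on days 2, 3, 4 and 5, and over all days the label difference was -0.72 ± 0.35 (double minus single, adjusted p = 0.163, limma-trend). That fit takes in day 0, where the X14 libraries, which went against their labels, had 22.7 RPM in double and 0.463 in single. The X18 pair of day 0 went the other way (2.06 and 35.9 RPM), and without day 0 Meg3 was still not called.

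Dlk1, the paternally expressed Notch-like ligand 77.7 kb upstream of Meg3, stayed below 15 RPM in all libraries. It had 2 reads in the 4 libraries of day 0, 44 on day 4 and 51 on day 8, which is a ratio of 27.6 for day 8 with a counting interval of 7.26 to 234. Day 7 had only 6 reads, and 30 of the 51 on day 8 were in X14 single. Dlk1 was highest on day 8 in the single cultures only. Rtl1, a paternally expressed gene of retrotransposon origin read against Meg3's direction 17.5 kb beyond it, was seen almost only around day 4. It had 0 reads on days 0 and 1, 12 on day 3, 32 on day 4 (2.02, 8.41, 5.07 and 3.92 RPM), 11 on day 5 and 1 on day 8. Day 4 was at least 10.5-fold above day 0, and day 8 was lower than day 4 (adjusted p = 6.26e-05, limma-trend). Begain, at the far paternal end of the cluster, had at most 2.93 RPM in any library.

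The Kcnq1ot1 domain on chromosome 7 holds 7 members with a line, all maternally expressed. On day 8 5 of the 7 were higher, against 23.9% of all genes, and 2 that adjoin each other, Cd81 and Tssc4, were not called. One of the 5, Slc22a18, rested on few reads. Cdkn1c, the cell cycle inhibitor p57, had 1.85, 4.17, 4.11 and 4.27 RPM on day 0, 45.7, 18.8, 34.9 and 31.4 RPM on day 4 and 391, 159.9, 413 and 179.6 RPM on day 8. The 3 days did not overlap, and on day 8 both double libraries were above both single ones. Its log2 fold change was 3.19 ± 0.37 on day 4 and 6.26 ± 0.37 on day 8 (adjusted p = 4.44e-08 and 2.55e-15, limma-trend).

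Ascl2 is a transcription factor of the trophoblast and Phlda2 a growth-restraining gene of the placenta. Ascl2 went from 6.48, 5.56, 1.03 and 0 RPM on day 0 to 30.9, 18.1, 30.4 and 17.4 on day 4 and 74.2, 28.2, 66.1 and 21.4 on day 8, a rise of 4.17 ± 0.62 on the log2 scale (adjusted p = 1.42e-06). Phlda2 was at 8.79, 6.95, 8.22 and 19.6 RPM on day 0 and 17.5, 16.8, 13.5 and 31.4 on day 4, and at 81.5, 47.6, 48.7 and 51.2 on day 8. It rose late, with a log2 fold change of 0.92 ± 0.49 by day 4 (adjusted p = 0.169), then of 2.48 ± 0.49 by day 8 (adjusted p = 9.71e-05). Its rise from day 4 to day 8 (1.57, adjusted p = 0.0127) was not called without X14 double (1.35, adjusted p = 0.105).

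Osbpl5, an oxysterol-binding protein gene, was later still. It had 2.31, 0.926, 0 and 0 RPM on day 0, 0.672, 0.647, 0 and 2.24 on day 4 and 39.5, 14.1, 22.6 and 3.57 on day 8, so that day 8 lay above both other days (3.71 ± 0.59, adjusted p = 4.64e-06 against day 0). Slc22a18, a transporter gene 2.21 kb from Phlda2, had 3 reads on day 0 and 17 on day 8, a ratio of 6.13 with a counting interval of 1.77 to 32.7. It was called on day 8 (adjusted p = 0.0416) but in none of the fits that left out X14 double, X14 single or X18 double (adjusted p = 0.246, 0.0574 and 0.24), and without the X14 libraries of day 0 it gave 0.85 (adjusted p = 0.391). The call was also lost with no filter, 75th percentile scaling, quantile normalisation, log2(RPM + 1), voom or only the 2 days (adjusted p from 0.057 to 0.124), which leaves 4 of the 7. Cd81, a tetraspanin, had 227, 408, 223 and 193 RPM on day 0 and 248, 241, 299 and 329.5 on day 8, and its log2 fold change was 0.14 ± 0.23 (adjusted p = 0.655). Tssc4 had 20.8, 32.9, 11.3 and 22.2 RPM on day 0 and 22.8, 27.7, 37.4 and 29.7 on day 8 (0.51 ± 0.26, adjusted p = 0.102). Both overlap another gene in the table (R74862 and Trpm5), and it is not stated whether counting used the strand.

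**Figure D3:**
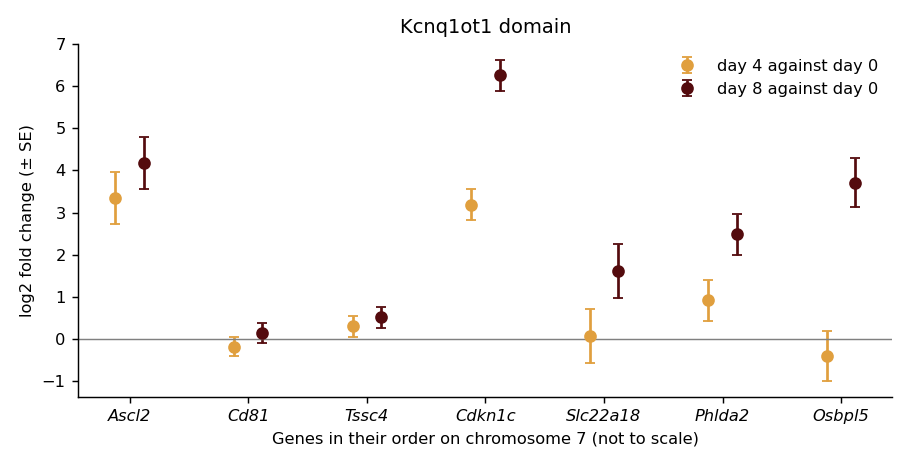
Log2 fold change (± SE) from day 0 to day 4 and to day 8 for the 7 members of the Kcnq1ot1 domain in their order along chromosome 7. On day 8 Cdkn1c (6.26), Ascl2 (4.17), Osbpl5 (3.71), Phlda2 (2.48) and Slc22a18 (1.61) lie above Tssc4 (0.51) and Cd81 (0.14).

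The Igf2r locus gave a late signal at its non-coding RNA. Igf2r, the maternally expressed receptor that clears Igf2, lay between 42.1 and 209.7 RPM in the libraries of days 0, 4 and 8, and was not called on any day (day 8, 0.57 ± 0.40, adjusted p = 0.242). Without the X14 libraries of day 0 it was called higher on day 2 (1.32, adjusted p = 0.0193) and day 8 (1.38, adjusted p = 0.00825). Airn, the paternally expressed antisense RNA known to silence Igf2r in cis, had 0 reads in all 28 libraries of days 0 to 6. It had 10 reads on day 7 and 31 on day 8 (8.31, 4.37, 3.48 and 2.38 RPM), at least 11.2-fold above day 0 over the group (adjusted p = 7.37e-06, limma-trend). The Airn line overlaps Igf2r, and without a stated strand reads of the pair cannot be told apart.

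Sfmbt2 and Gab1 are paternally expressed in extraembryonic tissue, where Sfmbt2, a polycomb gene, is needed for trophoblast. Sfmbt2 had 30.1, 25.5, 14.4 and 14.5 RPM on day 0, 61.2, 34.3, 45.1 and 17.9 RPM on day 4 and 686, 316, 267 and 94.0 RPM on day 8. Day 8 lay above both other days, with X14 double the highest and X18 single the lowest, as for Peg10. It gave 3.76 ± 0.45 on the log2 scale for day 8 (adjusted p = 2.51e-08), while day 4 gave 0.85 ± 0.45 (adjusted p = 0.163). The line shares its place with Gm13261. Gab1, an adaptor of growth factor receptors, was at 316, 149, 49.3 and 132 RPM on day 0 and 464, 261, 305 and 193 on day 8. The groups overlap, and its call (1.13 ± 0.37, adjusted p = 0.0124) was lost without X18 double (0.64, adjusted p = 0.214).

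Trophoblast markers were among the genes that moved on the same day. Of a list of 8, Cdx2, Hand1, Gata3 and Krt7 were called higher on day 8 and none lower, 6 were tested, and Prl3d1 had no read. The summed level of the 8 was 79.1 to 132 RPM on day 0, 12.9 to 68.6 on day 4 and 426 to 833 on day 8. Of 8 mesoderm and fibroblast markers 5 were higher (T, Pdgfra, Col1a1, Col1a2 and Acta2), with sums of 0 to 8.33 RPM on day 0, 0 to 2.24 on day 4 and 78.3 to 301 on day 8. Of 8 endoderm markers Foxa2 was higher (sums of 0 to 9.25 RPM on day 0, 0 to 1.34 on day 4 and 3.48 to 27.7 on day 8), and Ttr and Apoa1 had no read. Of 8 neural markers Nes was higher and Tubb3, Ncam1 and Mtap2 lower, with sums of 110 to 182 RPM on day 0, 60.8 to 118 on day 4 and 59.5 to 99.6 on day 8, and Neurog2 and Dcx had no read. All 8 mESC markers were lower on day 8, with sums of 4024 to 5188 RPM on day 0, 1379 to 2080 on day 4 and 391 to 740 on day 8. The part of these cell types in the changes of imprinted genes was not tested, and more RNA per cell cannot be told apart from more cells of a type.

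Mest and Snrpn were highest on day 4. Mest, a paternally expressed gene of the hydrolase family marking early mesoderm, had 43.5, 35.7, 11.3 and 37.6 RPM on day 0, 319, 302, 291 and 269 RPM on day 4 and 115, 146, 95.7 and 131 RPM on day 8. The 3 days did not overlap, and the 4 cultures stood close together on day 4. It rose by 3.37 ± 0.27 to day 4 (adjusted p = 2.25e-11) and fell by 1.29 ± 0.27 from day 4 to day 8 (adjusted p = 0.000294).

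Snrpn, a splicing factor gene at the head of the Prader-Willi cluster on chromosome 7, had 85.6, 123, 82.2 and 97.3 RPM on day 0, 444, 481, 475 and 507 RPM on day 4 and 118, 206, 151 and 301 RPM on day 8. It rose between day 3 (189 ± 22.8 RPM, SD, n = 4) and day 4 (477 ± 25.9), in all 4 cultures. Day 4 gave a log2 fold change of 2.32 ± 0.21 (adjusted p = 2.7e-10). For day 8 the value was 0.93 ± 0.21 (adjusted p = 0.000424), below the fold limit, which it passed without the X14 libraries of day 0 (1.03). On day 4 it had a mean of 221 RPKM, rank 196 of 14612.

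Of the other 5 genes of that cluster, Peg12 was called on day 4, in the lower direction. Ndn (necdin, paternal) was called on no day and had 16.1 ± 11.5 RPM on day 0 and 14.9 ± 6.60 on day 4 (SD, n = 4). Peg12, a paternally expressed inhibitor of GSK3, fell from 12, 23.6, 11.3 and 6.83 RPM on day 0 to 4.71, 2.59, 2.25 and 1.12 on day 4 (-2.37 ± 0.75, adjusted p = 0.0181). That call was lost without X14 single (-2.10, adjusted p = 0.0595), X18 double (-2.38, adjusted p = 0.0814), X18 single (-2.29, adjusted p = 0.0718) or the X14 libraries of day 0 (-1.90, adjusted p = 0.106). On day 8 Peg12 gave -1.50 with adjusted p = 0.0985, and 0.0396 with the replicate block. Magel2 had no read on day 0 and 19 reads on day 4, in the 2 single libraries only (9.06 and 2.80 RPM). It was called higher on day 6 alone (1.97 ± 0.71, adjusted p = 0.0236), with 0, 3.70, 2.76 and 5.58 RPM. Mkrn3 lay between 2.65 and 13 RPM in all libraries, and its fall from day 4 to day 8 (-1.05, adjusted p = 0.0382) was lost whichever 1 library set was left out (adjusted p from 0.0642 to 0.14). Ube3a, the maternally expressed ubiquitin ligase of the cluster, stayed between 40.2 and 113 RPM (day 8, 0.23 ± 0.26, adjusted p = 0.496).

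Plagl1 and Ddc went down in mid-course. Plagl1, a paternally expressed zinc-finger gene that restrains growth, had 72.2, 66.2, 33.9 and 15.4 RPM on day 0, 4.71, 3.23, 3.38 and 1.68 RPM on day 4 and 27.0, 23.8, 13.9 and 13.1 RPM on day 8. Day 4 lay below both other days. It fell by 3.70 ± 0.64 to day 4 (adjusted p = 4.67e-05) and rose by 2.60 ± 0.64 from day 4 to day 8 (adjusted p = 0.0019), and on day 8 it was not called against day 0 (-1.10, adjusted p = 0.16). Both single cultures fell first, to 7.07 and 7.32 RPM on day 3 while the double cultures had 52.7 and 40.3 RPM.

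Ddc, the decarboxylase of dopamine and serotonin synthesis, adjoins Grb10. It had 24.5, 13.9, 26.7 and 27.3 RPM on day 0 and 18.1, 5.82, 16.3 and 10.1 on day 4, then 0, 0, 0 and 1.04 RPM on day 5 and 1.04, 2.43, 0.870 and 1.19 on day 8. The fall to day 8 was 4.13 ± 0.47 (log2, adjusted p = 8.33e-09), most of it in the single step from day 4 to day 5. Grb10, an adaptor that restrains growth factor signalling, was called higher on day 5 (1.47 ± 0.47, adjusted p = 0.0146) and day 7 (1.13, adjusted p = 0.0487). Its mean was 74.7 ± 43.0 RPM on day 0, 219 ± 129 on day 5 and 122 ± 33.7 on day 8 (SD, n = 4), with 0.86 ± 0.47 on day 8 (adjusted p = 0.139). Day 8 was called without X14 double (1.36, adjusted p = 0.0138) and without the X14 libraries of day 0 (1.51, adjusted p = 0.0242).

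**Figure D4:**
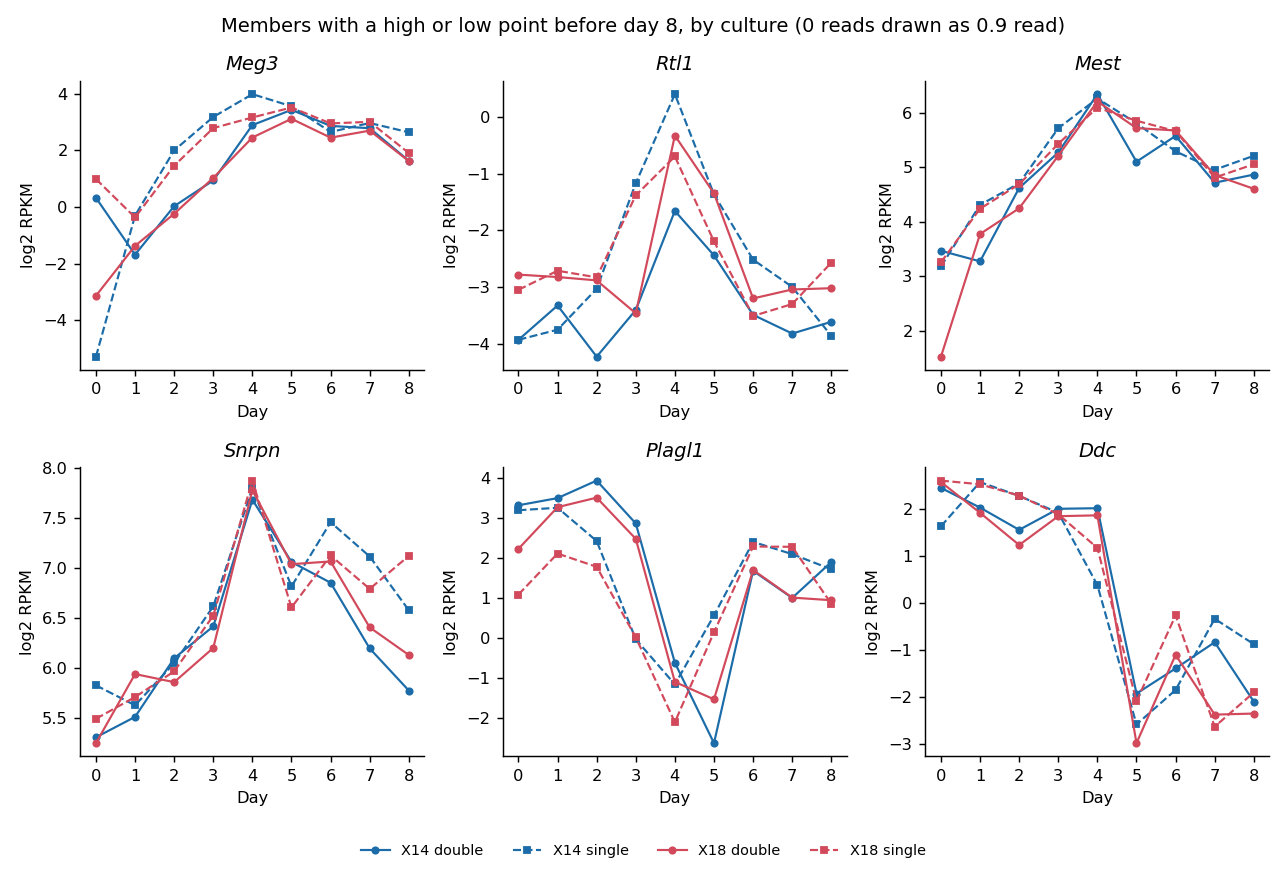
Level of Meg3, Rtl1, Mest, Snrpn, Plagl1 and Ddc by day in each of the 4 cultures, as deposited log2 RPKM with 0 reads drawn as 0.9 read. Rtl1, Mest and Snrpn have their high point on day 4 in most cultures, Plagl1 its low point on day 4 or 5, and Ddc drops between days 4 and 5.

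Nnat (neuronatin, paternal) rose early and stayed high. It had 2.78, 2.78, 0 and 1.71 RPM on day 0, 32.9, 78.9, 42.8 and 66.1 on day 4 and 30.1, 96.2, 68.8 and 124 on day 8 (5.24 ± 0.62, adjusted p = 2.08e-08), so that both later days lay above day 0. It overlaps Blcap. Gnas, which encodes the stimulatory G protein alpha subunit and other products, had 179.5, 119, 64.7 and 136 RPM on day 0, 196, 322, 175 and 287 on day 4 and 519, 567, 630.1 and 679 on day 8 (2.35 ± 0.25, adjusted p = 2.3e-09). Its day 4 call (1.02 ± 0.25, adjusted p = 0.00247) fell under the fold limit with 75th percentile scaling (0.95), with quantile normalisation (0.85) and without X14 single, X18 double or X18 single (0.88 to 1.0). Inpp5f, a phosphoinositide phosphatase, went from 5.09, 6.48, 3.08 and 2.56 RPM on day 0 to 18.8, 38.2, 21.4 and 43.2 on day 4 and 48.8, 35.5, 24.4 and 29.7 on day 8 (3.06 ± 0.36, adjusted p = 2.04e-08).

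Of the 2 host genes that hold a retrogene, H13 rose by day 8 and Commd1 was not called. Mcts2, a paternally expressed retrocopy of the X-linked gene Mcts1, lies within an intron of H13, a signal peptide peptidase. H13 rose from 11.1, 10.2, 10.3 and 7.68 RPM on day 0 to 82.5, 43.7, 74.8 and 59.5 on day 8 (2.70 ± 0.29, adjusted p = 3.89e-09), while Mcts2 had 20.8 to 32.9 RPM on day 0 and 12.5 to 32.1 on day 8 (-0.64 ± 0.24, adjusted p = 0.0316, under the fold limit). Zrsr1, a retrocopy of the X-linked splicing factor Zrsr2, lies within Commd1. Zrsr1 had 21.3 to 32.9 RPM on day 0 and 22.4 to 44.4 on day 8 (0.32 ± 0.23, adjusted p = 0.272). Commd1, a copper and NF-kB regulator, had 110.1, 125, 179 and 207 RPM on day 0 and 62.8, 84.5, 93.1 and 131 on day 8 (-0.75 ± 0.23, adjusted p = 0.0072, under the fold limit), and passed it without the X14 libraries of day 0 (-1.10, adjusted p = 0.000622). How reads shared with a source gene were assigned is not stated. Impact, a paternally expressed regulator of translation, stayed between 83.0 and 269 RPM. Nap1l5 reached at most 3.89 RPM and Dcn (decorin) at most 3.23 RPM.

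No imprinted gene was called between the lines, and 3 were called between the labels. Between X18 and X14, with day and label in the fit, 0 of 41 were called by limma-trend or by voom. Of all genes 0.0137% were called by limma-trend. Unadjusted p (limma-trend) was under 0.05 for 7 of the 41 and for 2546 of the 14612 genes. The lowest adjusted p was that of Sfmbt2 (0.181), which was lower in X18 by 0.57 on the log2 scale. Between the labels, with day and line in the fit, Ndn and Peg12 were higher and Nnat was lower in double, 3 of 41 or 7.32%, against 2.99% of all genes, 2.05% higher and 0.944% lower. Without a fold limit 12 had an adjusted p under 0.05, 7 higher and 5 lower, among them Grb10 (-0.86), Phlda2 (-0.77), Ascl2 (0.77), Peg10 (0.61) and Sfmbt2 (0.51). The share of all genes under that rule is not given here. Unadjusted p (limma-trend) was under 0.05 for 22 of the 41 and for 4241 of the 14612 genes.

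Nnat was lower in double than in single on 9 of 9 days in each line, by 1.32 ± 0.18 on the log2 scale (adjusted p = 5.36e-06), although on day 0 the X14 libraries were level at 2.78 RPM. Ndn was higher in double on 9 of 9 days in X18 and on 8 of 9 in X14, where day 0 went the other way (6.48 RPM in double and 28.2 in single). The difference was 1.04 ± 0.19 (adjusted p = 0.000274). Peg12 was higher in double on 8 of 9 days in X18 and 5 of 9 in X14 (1.24 ± 0.28, adjusted p = 0.00251). Without day 0 the same 3 were called. Within 1 line each label is 1 culture, and the shares of all genes called there are not given here. Within X18 alone 5 were called, these 3 with Meg3 (-1.20) and Phlda2 (-1.19), and within X14 alone none (Nnat -1.44, adjusted p = 0.111, Ndn 0.82, adjusted p = 0.274, Peg12 1.13, adjusted p = 0.277). Ndn and Peg12 were not called without either X18 culture (Ndn adjusted p = 0.14 and 0.158, Peg12 0.155 and 0.197), nor Peg12 without X14 double (adjusted p = 0.0527).

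**Figure D5:**
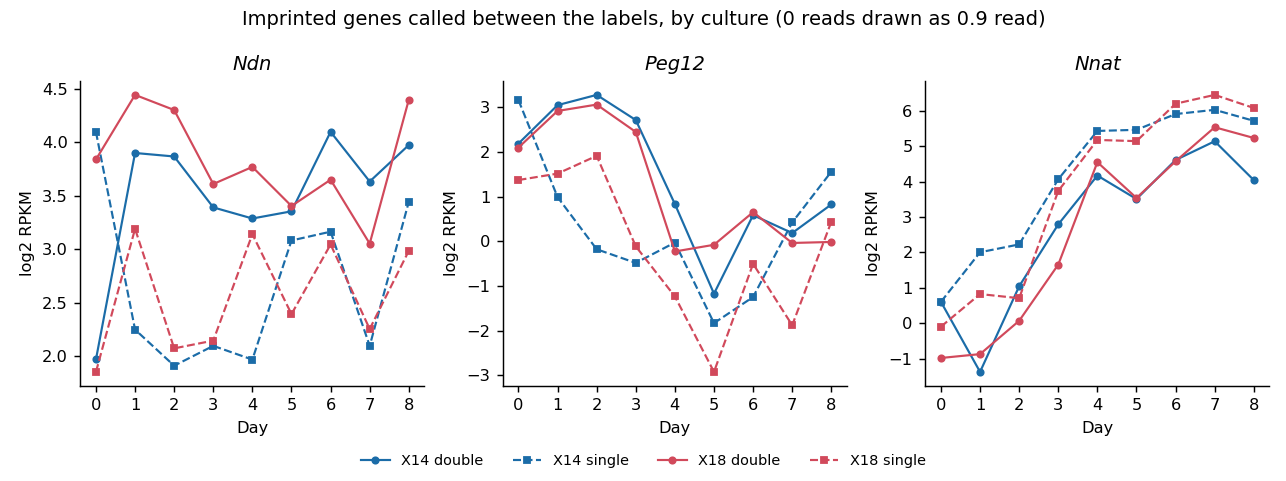
Level of Ndn, Peg12 and Nnat by day in each of the 4 cultures, as deposited log2 RPKM with 0 reads drawn as 0.9 read. Solid lines (double) run above the dashed lines (single) of the same line for Ndn on days 1 to 8 and below them for Nnat from day 1 on. For Peg12 the gap is widest on days 1 to 3 in X14 and on day 5 in X18.

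Other lists moved with the labels too. Of the trophoblast markers Hand1 (1.26), Gata3 (1.78) and Tfap2c (1.39), of the mESC markers Klf2 (1.12) and Tbx3 (1.02), and of the imprint maintenance factors Dppa3 (1.13) were called higher in double, and none of these lists had a gene called lower. Under the fold limit, Dnmt3b (-0.85, adjusted p = 0.000274), Trim28 (-0.42, adjusted p = 0.00314) and Cbx1 (-0.28, adjusted p = 0.00233) were among the maintenance factors lower in double. The mESC markers Tfcp2l1 (0.80, adjusted p = 0.00946) and Esrrb (0.54, adjusted p = 0.038, all limma-trend) were higher. Of the X-linked source genes, Zrsr2 was 0.89 higher in double (adjusted p = 7.89e-05) and Mcts1 0.51 higher (adjusted p = 0.0293), while Zrsr1 gave 0.26 (adjusted p = 0.0737) and Mcts2 -0.16 (adjusted p = 0.346). The part of these in the label differences was not tested.

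The change from days 1 and 2 to days 7 and 8 was compared between lines and between labels. Neither comparison called an imprinted gene by limma-trend. Between lines 2 of the 41 and 510 of the 14612 genes had an unadjusted p under 0.05 (limma-trend). Limma-trend called 0.00684% of all genes. By voom 0 imprinted genes were called, and its share of all genes is not given here. Between labels 13 of the 41 and 2188 of the 14612 genes had an unadjusted p under 0.05 (limma-trend). Limma-trend called 0 of the 41 and 1.95% of all genes. By voom 1 imprinted gene was called, and its share of all genes is not given here.

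Several factors that keep or set imprints, or that remove DNA methylation, changed over the same days. Of a list of 22, 4 were higher and 3 lower on day 4, against 12.2% of all genes higher and 6.4% lower. Dnmt3b, Dnmt3l and Dnmt3a, the de novo DNA methyltransferases and their cofactor, rose from means of 53.7, 34.8 and 54.1 RPM on day 0 to 1849, 913 and 618 RPM on day 4 and came back to 262, 74.9 and 83.6 RPM on day 8. Their log2 fold changes on day 4 were 5.29, 4.87 and 3.53, and on day 8 the first pair was still called higher (2.45 and 1.17) and Dnmt3a was not (0.63, adjusted p = 0.193). Zfp57 fell from 216 ± 42.2 RPM on day 0 to 81.2 ± 4.80 on day 4 and 36.5 ± 12.8 on day 8 (SD, n = 4), a log2 fold change of -2.62 ± 0.23 on day 8 (adjusted p = 3.02e-11). Dppa3, which shields the maternal genome from demethylation, and Tet2, a demethylase, were lower on both days, and Tet3 was higher on both. On day 8 4 of the 22 were higher and 6 lower, against 23.9% of all genes higher and 11.1% lower. Trim28 and Zfp445 were not called on either day, and Dnmt1 and Uhrf1, which copy methylation at replication, were not called either. Of these, Trim28 on day 4 (0.70, adjusted p = 0.0459) and Uhrf1 on day 8 (-0.70, adjusted p = 0.0377, both limma-trend) were only under the fold limit. Methylation itself was not measured.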

How the data were processed

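Per the study's methods, single-end reads were adapter-trimmed (trim_galore), mapped to mm10 (TopHat2 2.0.12 in the submitters' processing notes) and quantified in SeqMonk, with annotation version and strand setting not given in the sources used here. The authors deposited log2 values, which resolved as log2 RPKM with a gene of 0 reads written as 0.9 read. All values (100%) came out as whole reads once each gene had 1 exon length and each library 1 divisor (tolerance 0.02 read), and these gave RPM, depth and floors. All 36 columns were mapped to a library and 0 were left over. Genes with at least 1 RPM in at least 4 libraries were tested with limma 3.58.1 (linear fits with a mean-variance trend, R 4.3.3). The factors were the day alone, or day, line and label together. The replicate number marks one culture (line and label), the same cell line on each day. The median correlation of deviations from the day mean within a culture was 0.13 to 0.19 and the lowest single value -0.58, so the fit with the culture as replicate block is given where it changes a call. Replicates of a day differed by at least 1.24 in chi-square per gene, and none was merged. The imprinted genes, their parental classes and all other lists were chosen with earlier results of these data known. Values in every library are given for genes called in a comparison with a mean of at least 10 RPM on some day and for their neighbours. Other scalings, filters, a pseudocount of 1, voom on recovered reads and fits without single cultures were tried. The tests were checked on simulated data.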

Additional observations from a re-analysis of the deposited data

Results flagged for a closer look

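Of 79 groups of 4 libraries looked at (1 gene on day 0, 4 or 8, where its mean reached 10 RPM), 3 held a library whose gap to the nearest other, as a share of the range, passed Dixon's 95% limit, and chance flags about 1 in 20 groups. Phlda2 on day 0 was at 19.6 RPM in X18 single and at 6.95 to 8.79 RPM in the other libraries. Phlda2 on day 8 was at 81.5 RPM in X14 double and at 47.6 to 51.2 RPM in the others. Cd81 on day 0 was at 408 RPM in X14 single and at 193 to 227 RPM in the others.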

How the results depend on the processing

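No imprinted gene given as called reversed its direction under any alternative run. Calls on day 1 went from 0 to 3 without the X14 libraries of day 0, an alternative chosen after seeing the data. Calls on day 2 (5 as reported) were the least stable, with 3 without a filter, 3 with quantile normalisation, 3 with voom, 1 with only the 2 days compared, 10 with the replicate block and 13 without the X14 libraries of day 0. Day 3 (13) gave 6 with only its 2 days. The comparison of day 4 with day 8 (17) gave 11 when a mean of at least 10 RPM was required, which tested 28 imprinted genes. The labels (3) gave 1 on the log2(RPM + 1) scale, 12 with no minimum fold change, 0 within X14 and 5 within X18, and the change over time between labels (0) gave 1 with quantile normalisation and 1 with voom. The shares of all genes called under these settings are not given here. Apart from these settings and the left-out cultures, the cause was not tested. Leaving out 1 culture at a time gave 0 to 1 calls on day 1, 2 to 10 on day 2, 8 to 14 on day 3, 2 to 5 between labels and 0 to 1 for the change between labels. The replicate block changed no call beyond those given with their genes and Dcn on day 4 (1.37, adjusted p = 0.0254). Depth limits genes with a few reads, but calls were lost on leaving out a culture both there (Usp29, Zim1, Slc22a18) and at higher levels (Gab1, Gnas, Ppp1r9a, Phlda2).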
